A study of Mus musculus with 5 samples.

Results

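Core and linker histone genes were read in mouse spleen on 5 2-colour microarrays. Members were chosen by gene symbol, from the names of the H1, H2A, H2B, H3 and H4 families, without use of any measured value. Of 14654 genes on the array, 58 met the rule, through 69 probes, and 48 of them had a value on all 5 arrays. These 48 comprised 44 replication-dependent genes (3 H1, 10 H2A, 13 H2B, 7 H3 and 11 H4) and 4 variant genes (H2ax, H2az1, H3f3a and H3f3b). All 58 are accounted for below. The study compared spleens of Sirt6 knockout mice (S6-/-, 2 arrays) with spleens of Sirt6 knockout mice heterozygous for Rela (S6-/- RA+/-, 3 arrays), so both groups lack Sirt6, a chromatin-bound deacetylase, and differ in the dose of Rela, the p65 subunit of NF-kB. On each array 15 ug of amplified RNA from a mutant spleen, carrying Cy5, was set against the same amount of pooled wild-type spleen RNA, carrying Cy3. The sources used here do not state strain, age, sex or alleles, or whether a spleen came from 1 animal.

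Each value was taken as a log2 ratio, below 0 where the mutant spleen was dimmer than the pool, and values are listed in array order, knockout 1 and 2 and then heterozygous 1 to 3. The sources used here state neither the log base nor the direction. An array held between 19768 and 22871 values over 38784 spots, and 9000 genes were measured on each of the 5. The pool counts as 1 control sample without a spread of its own, and with no dye swap a probe's preference for a dye adds to each ratio against it, though not to a difference between mutant groups. Rela itself read 0.48 and 1.07 in the knockout spleens and -0.084 and -0.20 on heterozygous arrays 2 and 3. Those 2 readings lie near the pool. On the library labelled heterozygous 1 it read 1.15, which goes against that label but rests on 1 probe. That array also held the fewest values (19768) and had the widest spread over the tested genes (SD 1.29). Values without that library are given beside many, though not all, of the class medians and counts in which it takes part. Sirt6 had a single value, -4.31 on heterozygous array 2, and could not be checked on the other arrays. The 3 measured Y-linked genes lay between 1.45 and 2.96 above the pool on every array, so sex and genotype cannot be told apart against the pool. A ratio gives no level, so the tissue could not be checked against its markers, and in whole spleen fewer cells of a type and less RNA per cell cannot be told apart.

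Histones are the proteins around which DNA is wound. Pairs of H2A, H2B, H3 and H4 form the nucleosome core, and linker histone H1 binds where DNA enters and leaves it. Replication-dependent histone genes lie in clusters, are transcribed mainly in S phase, and make messenger RNAs that end in a stem-loop bound by the protein SLBP instead of a poly(A) tail. Variant histone genes such as those of H3.3 and H2A.Z lie outside the clusters, make polyadenylated messenger RNAs and are used throughout the cell cycle. In spleen, dividing erythroid precursors and lymphocytes are sources of S phase cells. The sources used here do not state how the RNA was primed for amplification, and the part of priming in the ratio between both kinds of messenger was not tested.

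The replication-dependent genes lay below the pool in knockout spleens while the variant genes lay around it. The median of the 44 replication-dependent genes was -1.10 on knockout array 1 and -2.61 on knockout array 2. It was -1.16 on the library labelled heterozygous 1, -0.73 on heterozygous array 2 and 0.036 on heterozygous array 3. The median of the 4 variant genes was 0.21 and -0.053 in the knockout spleens and -0.46, 0.25 and 1.24 on heterozygous arrays 1 to 3. The replication-dependent median was thus the lower of both on each of the 5 arrays, and the gap ran from -0.70 on the library labelled heterozygous 1 to -2.55 on knockout array 2. The median of all 9000 genes stayed between -0.065 and 0.053.

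**Figure D1:**
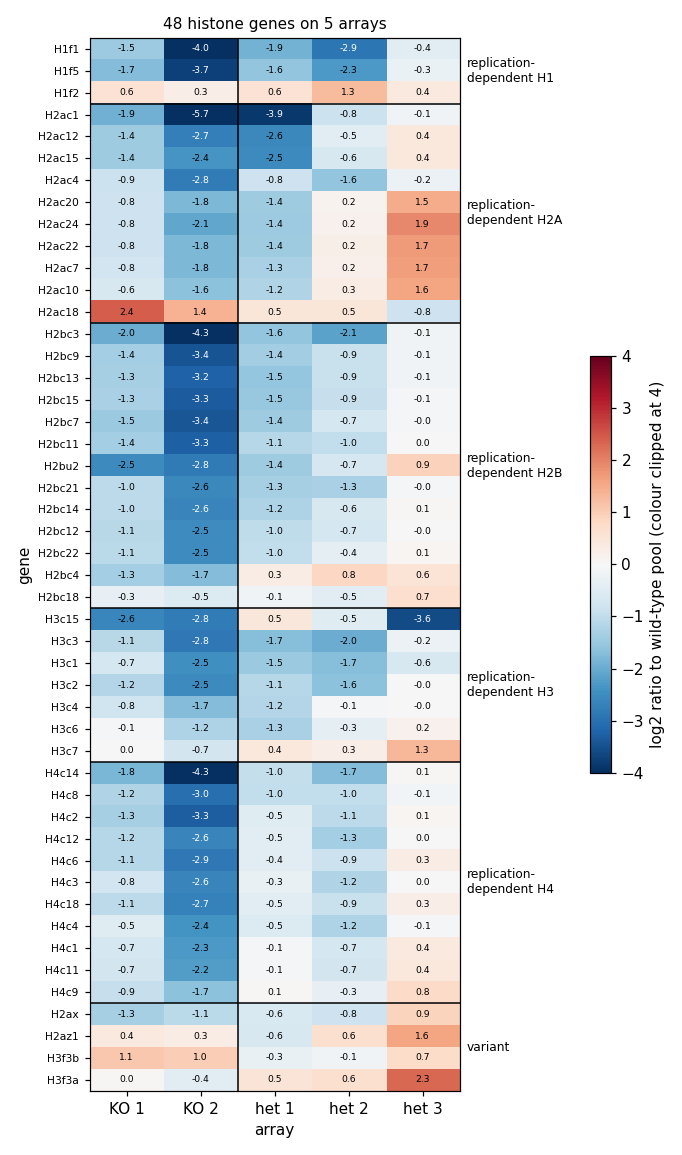
Log2 ratio to the wild-type pool of the 48 histone genes with a value on all 5 arrays, 1 row per gene grouped by class and family, and 1 column per array (KO, Sirt6 knockout; het, Sirt6 knockout heterozygous for Rela). Knockout array 2 is the lowest column for 41 of 48 genes (13.3% of all genes), and heterozygous array 3 the highest for 43 of 48 (28.2% of all genes).

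Linker histone genes split within the family. H1f1 read -1.45 and -4.04 on knockout arrays 1 and 2, and -1.90, -2.88 and -0.42 on heterozygous arrays 1 to 3. H1f5 read -1.73 and -3.73 in the knockout spleens and -1.59, -2.28 and -0.26 in the heterozygous spleens. Both lay below the pool on all 5 arrays, lowest on knockout array 2 and nearest to it on heterozygous array 3, and the groups overlapped. H1f2 read 0.57 and 0.28 in the knockout spleens and 0.58, 1.25 and 0.39 in the heterozygous spleens. H1f2 encodes linker histone H1.2 and is known to be made also as a polyadenylated messenger in differentiated cells. It lay above the pool on every array, and its groups overlapped. In the knockout group the mean was -2.75 ± 0.76 for H1f1 (SE, n = 2, limma adjusted p = 0.134), -2.73 ± 0.63 for H1f5 (adjusted p = 0.110) and 0.42 ± 0.36 for H1f2 (adjusted p = 0.522).

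H2A genes fell into several levels. H2ac1, which encodes the testis-enriched form TH2A, had the lowest knockout mean of all members and read -1.91 and -5.69 in the knockout spleens and -3.86, -0.85 and -0.14 in the heterozygous spleens. H2ac12 read -1.42 and -2.74 in the knockout spleens and -2.57, -0.46 and 0.42 in the heterozygous spleens. For both genes the library labelled heterozygous 1 lay within the range of the knockout arrays and heterozygous arrays 2 and 3 above it. H2ac10 read -0.64 and -1.64 in the knockout spleens and -1.21, 0.29 and 1.59 in the heterozygous spleens. With H2ac7, H2ac20, H2ac22 and H2ac24 it formed a set of 5, singled out after the values were seen, that stayed within 0.43 of each other on every array and reached up to 1.93 on heterozygous array 3. Replication-dependent genes of 1 family are near-identical in coding sequence, so a probe for one can bind the messengers of others, and such genes are not independent readings. Probe sequences were not used here.

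H2ac18 was the exception among H2A genes, and its value rested on its probes. As a mean over probes it read 2.42 and 1.41 in the knockout spleens and 0.49, 0.49 and -0.83 in the heterozygous spleens, so that every heterozygous array lay below both knockout arrays, as for 13.8% of all genes. Probe 2604 entered that mean on the knockout arrays alone, at 4.23 and 2.71, and had no value in the heterozygous spleens. The only probe of the gene with a value on all arrays, 30676, read 0.60, 0.10, 0.49, 0.49 and -0.83. With that probe the knockout mean was 0.35 (limma adjusted p = 0.662) in place of 1.91 ± 0.47 (SE, n = 2, adjusted p = 0.115).

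The 13 tested H2B genes all lay below the pool on both knockout arrays, as did 41.9% of all genes. H2bc3 was the lowest, at -1.99 and -4.33 in the knockout spleens and -1.59, -2.15 and -0.13 in the heterozygous spleens. H2bc9 read -1.36 and -3.44 in the knockout spleens and -1.39, -0.88 and -0.14 in the heterozygous spleens. The groups overlapped for both, since knockout array 1 lay among or near the heterozygous arrays. At the other end, H2bc18 read -0.34 and -0.53 in the knockout spleens and -0.14, -0.47 and 0.66 in the heterozygous spleens, within 0.7 of the pool throughout. H2bc4, another gene known to be made also as a polyadenylated messenger, read -1.35 and -1.72 in the knockout spleens and 0.30, 0.84 and 0.55 in the heterozygous spleens. It was the only one of 48 members below the pool on both knockout arrays and above it on all 3 heterozygous arrays. That share is close to the 2.12% of all tested genes with this pattern. Its probe 19660 read -0.23 on the library labelled heterozygous 1 and did not show the pattern. H2bu2, from the small Hist3 cluster, read -2.54 and -2.82 in the knockout spleens and -1.42, -0.69 and 0.92 in the heterozygous spleens, also without overlap (14.4% of all genes).

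The upstream sequences of the genes at both ends of the H1 and H2B families are shown because members of a family share promoter elements and yet read far apart here. They are the 200 bases before the annotated start, 5' to 3' on the plus strand of GRCm38.p6, from RefSeq, and capitals mark matches on either strand to ATTTGCAT (the octamer), CCAAT (the motif of factor NF-Y), TATAAA (a form of the TATA box) or AAACACA (the H1 box), none of which contains another. The windows are chr13:23746534-23746733 (H2bc3), chr3:96269500-96269699 (H2bc18), chr13:23763468-23763667 (H1f1) and chr13:23738607-23738806 (H1f2).
H2bc3: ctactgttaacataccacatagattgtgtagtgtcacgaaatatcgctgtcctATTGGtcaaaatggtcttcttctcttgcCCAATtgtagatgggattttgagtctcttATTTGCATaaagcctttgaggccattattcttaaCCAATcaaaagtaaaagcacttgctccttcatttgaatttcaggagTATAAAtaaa
H2bc18: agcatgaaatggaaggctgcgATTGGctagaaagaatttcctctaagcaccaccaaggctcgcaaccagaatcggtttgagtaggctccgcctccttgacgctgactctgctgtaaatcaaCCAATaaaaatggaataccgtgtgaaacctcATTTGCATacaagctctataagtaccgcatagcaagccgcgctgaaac
H1f1: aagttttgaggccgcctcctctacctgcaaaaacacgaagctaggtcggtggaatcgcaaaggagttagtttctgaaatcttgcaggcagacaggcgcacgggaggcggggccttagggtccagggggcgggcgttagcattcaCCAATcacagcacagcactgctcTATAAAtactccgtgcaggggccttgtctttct
H1f2: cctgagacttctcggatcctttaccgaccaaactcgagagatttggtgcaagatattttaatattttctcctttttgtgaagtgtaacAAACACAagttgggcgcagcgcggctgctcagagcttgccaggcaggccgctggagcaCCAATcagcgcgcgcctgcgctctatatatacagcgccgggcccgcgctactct
Both H2B windows hold the octamer and CCAAT, and that of H2bc3 alone also holds TATAAA. The H1f1 window holds CCAAT and TATAAA, and the H1f2 window CCAAT and AAACACA. Promoter windows were matched for 42 of the 48 genes, and H2ax, H2bc4, H2bc21, H3c1, H3c7 and H4c14 were not among them. In the 250 bases before the start, CCAAT stood in 31 of 39 windows of replication-dependent genes, against 33.8% of 32851 windows of all genes. By family it stood in 3 of 3 H1, 10 of 10 H2A, 11 of 11 H2B, 4 of 5 H3 and 3 of 10 H4 windows. It also stood in 3 of 3 windows of variant genes. Of the 39 windows, TATAAA stood in 19 (12.4% of all), ATTTGCAT in 8 (1.60% of all), which were 4 H2A and 4 H2B genes, and AAACACA in 5 (6.25% of all). A match is a description of letters and not of binding.

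Knockout array 2 was the lowest array for 5 of 7 H3 genes (13.3% of all genes), and H3c6 and H3c15 were the others. H3c3 read -1.11 and -2.84 in the knockout spleens and -1.70, -1.98 and -0.23 in the heterozygous spleens. H3c6 read -0.062 and -1.25 in the knockout spleens and -1.28, -0.35 and 0.17 in the heterozygous spleens. H3c7 read 0.027 and -0.73 in the knockout spleens and 0.43, 0.25 and 1.32 in the heterozygous spleens. It was the only 1 of 7 H3 genes of the clusters without overlap between the groups, which is the share over all genes (14.4%). H3c15, from the Hist2 cluster, read -2.60 and -2.81 in the knockout spleens and 0.46, -0.48 and -3.57 in the heterozygous spleens. It was highest on the library labelled heterozygous 1 and lowest on heterozygous array 3, where 40 of 44 replication-dependent genes, and 28.2% of all genes, had their highest value. The median of 11 exocrine pancreas genes took a like course, at -2.74 and -2.80 in the knockout spleens and 1.32, -0.27 and -2.10 in the heterozygous spleens, and its part in the H3c15 values was not tested.

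H4 genes lay below the pool on both knockout arrays in 11 of 11 cases (41.9% of all genes), and all of them were tested. H4c14, from the Hist2 cluster, was the lowest at -1.82 and -4.31 in the knockout spleens and -0.95, -1.75 and 0.055 in the heterozygous spleens. H4c8 read -1.19 and -3.02 in the knockout spleens and -0.995, -0.975 and -0.099 in the heterozygous spleens, with each heterozygous array above both knockout arrays (14.4% of all genes). H4c11 read -0.73 and -2.22 in the knockout spleens and -0.080, -0.75 and 0.41 in the heterozygous spleens. H4c9 read -0.92 and -1.65 in the knockout spleens and 0.056, -0.34 and 0.77 in the heterozygous spleens, as the mean of probes that differed by up to 1.75 on 1 array. Knockout array 2 was the lowest (13.3% of all genes) and heterozygous array 3 the highest array (28.2% of all genes) for each of the 11 genes.

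Variant genes did not share 1 course. H2ax, which encodes the variant phosphorylated at DNA breaks and whose messenger also exists in a stem-loop form, read -1.32 and -1.07 in the knockout spleens and -0.62, -0.83 and 0.90 in the heterozygous spleens. It was the only variant below the pool on both knockout arrays (41.9% of all genes). H2az1, which encodes H2A.Z, read 0.38 and 0.30 in the knockout spleens and -0.63, 0.65 and 1.58 in the heterozygous spleens. H3f3a and H3f3b encode the same H3.3 protein and went different ways. H3f3a read 0.035 and -0.41 in the knockout spleens and 0.52, 0.64 and 2.31 in the heterozygous spleens, each above both knockout arrays (14.4% of all genes). H3f3b read 1.08 and 1.00 in the knockout spleens and -0.30, -0.14 and 0.74 in the heterozygous spleens, each below both knockout arrays (13.8% of all genes). The difference between the groups was 1.34 ± 0.65 (SE, n = 3 and 2) for H3f3a and -0.94 ± 0.48 for H3f3b, and neither passed limma's threshold (adjusted p = 0.614 and 0.638). Without the library labelled heterozygous 1 the differences were 1.66 and -0.74.

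The other 10 genes of the rule lacked a value on at least 1 array and were not tested. H1f6 and H1f8, linker histones of the germ line, had none. H1f7 had 1 value, 1.24 on heterozygous array 3, H1f10 had 0.50 on knockout array 2, and H3c8 had -2.29 on heterozygous array 2. H1f3 had -0.45 on knockout array 2 and -0.91 on heterozygous array 2, and H2bc1 had -1.42 and -0.76 on heterozygous arrays 2 and 3. These scattered values give no comparison between the groups. H2ac6 and H2bc6 had no value on the library labelled heterozygous 1 alone. H2ac6 read -0.55 and -2.30 in the knockout spleens and -2.05 and -0.62 on heterozygous arrays 2 and 3, and H2bc6 read 0.86, -1.50, -1.08 and -0.15 on the same arrays. H2bc8 had 0.48, 0.64 and 3.87 on knockout array 1 and heterozygous arrays 1 and 2.

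In the knockout group, 41 of 44 replication-dependent genes lay below the pool on both arrays, as did 41.9% of all 9000 genes, and 2, H1f2 and H2ac18, lay above it on both (39.6% of all). At an unadjusted limma p under 0.05, 34 of the 44 lay below the pool (10.6% of all genes) and 1 above it (9.82% of all genes), which was H2ac18. By family these were 11 of 11 H4, 12 of 13 H2B, 5 of 7 H3, 4 of 10 H2A and 2 of 3 H1 genes. Of the 4 variant genes, H2ax lay below (-1.19 ± 0.48, SE, n = 2) and H3f3b above (1.04 ± 0.38) by the same rule. After Benjamini-Hochberg adjustment over all genes, limma called 0 of the 48 members and 0 of 9000 genes (0% of all), and the smallest adjusted p among members was 0.106, that of H2bu2. The group medians were -1.84 for replication-dependent and 0.078 for variant genes, a gap of -1.92, against -0.032 for all tested genes. When limma was fitted to the 2 knockout arrays by themselves, it called 40 members lower and 2 higher, where it also called 1757 and 1564 of 9000 genes. Without knockout array 2 the replication-dependent median was -1.10, and without knockout array 1 it was -2.61. Each of these fits left 1 knockout array, which was assumed to vary like the heterozygous ones, so no count is given. Over all arrays the count of members lower at an unadjusted limma p under 0.05 was 35. Without the library labelled heterozygous 1, which enters through the spread, it was 40 (1407 of all 9000 genes).

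Replication-dependent genes stepped down from knockout array 1 to knockout array 2. Each of the 44 replication-dependent genes read lower on knockout array 2 than on array 1, as did 50.5% of all genes. The median step was -1.52, from -0.20 for H2bc18 to -3.78 for H2ac1. It was -2.0 for the 3 H1 genes, -1.73 for H4, -1.61 for H2B, -1.18 for H3 and -1.01 for H2A. The 4 variant genes had a median step of -0.083. For S phase genes the median step was -0.25, with 21 of 35 lower on array 2, and for mitosis genes it was -0.41, with 19 of 20. With 2 arrays in the group, the step is a description of these spleens and no test of it was possible.

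**Figure D2:**
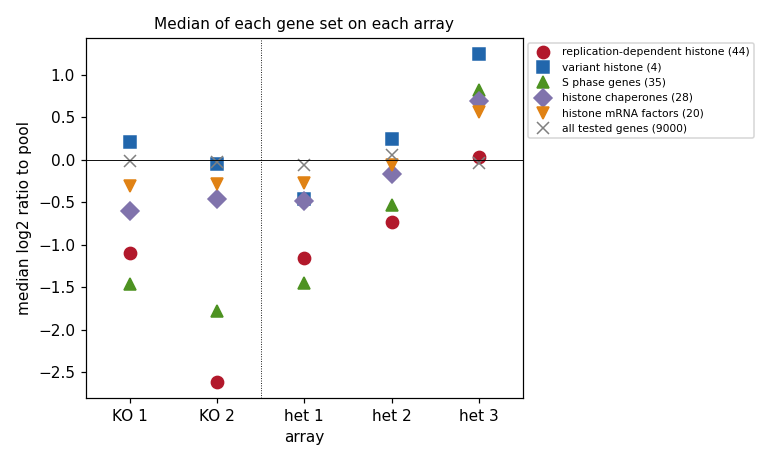
Median log2 ratio to the wild-type pool (vertical axis) of 6 gene sets on each of the 5 arrays (horizontal axis), with the number of genes in each set in the legend. Replication-dependent histone genes lie at -1.10 and -2.61 on the knockout arrays, where S phase genes lie at -1.46 and -1.78, and variant histone genes lie above the replication-dependent genes on every array.

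Other genes of the histone pathway were described from lists written from general knowledge. S phase genes, such as those of the replicative helicase, had medians of -1.46 and -1.78 in the knockout spleens and -1.45, -0.54 and 0.82 in the heterozygous spleens. Replication-dependent histone genes lay 0.36 above that median on knockout array 1 and 0.30 above it on the library labelled heterozygous 1. They lay 0.83, 0.19 and 0.78 below it on knockout array 2 and heterozygous arrays 2 and 3, so that no constant offset held between the sets. In the knockout group 23 of 35 S phase and 18 of 20 mitosis genes lay below the pool at an unadjusted limma p under 0.05. Erythroid markers, whose precursors divide, lay at -2.73 and -2.45 in the knockout spleens and -1.01, -0.59 and 1.61 in the heterozygous spleens, with 17 of 23 genes below the pool by the same rule in the knockout group. B cell markers lay at -0.92 and -1.39 in the knockout spleens and -0.27, -0.21 and -1.20 in the heterozygous spleens, and T cell markers at 0.18 and -0.03 and at 0.27, 0.78 and -0.83. The part of cell composition in the histone values was not tested.

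Histone chaperones, which carry histones to and from DNA, lay between the replication-dependent genes and the pool on both knockout arrays. Their medians were -0.60 and -0.47 in the knockout spleens and -0.48, -0.17 and 0.69 in the heterozygous spleens, and 4 of 28 lay below (10.6% of all genes) and 1 above the pool (9.82% of all genes) in the knockout group at an unadjusted limma p under 0.05, close to or under the share over all genes. The 4 were the H3-H4 chaperones Asf1b (-1.95 ± 0.61, SE, n = 2) and Nasp (-1.25 ± 0.45), the acetyltransferase for newly made H4 Hat1 (-1.16 ± 0.42) and Chaf1b (-1.18 ± 0.44), a subunit of the assembly factor CAF-1, and the 1 above was the elongation factor and histone chaperone Supt6 (1.02 ± 0.41). Of 20 factors for transcription and 3' processing of histone messengers, 1 lay below the pool by that rule. It was Zfp473, whose human counterpart is a component of the U7 particle that cleaves histone messengers, at -2.84 and -2.10 in the knockout spleens and -0.20, -0.48 and -0.37 in the heterozygous spleens. Its knockout mean was -2.47 ± 0.34 (SE, n = 2, limma adjusted p = 0.0912). Eri1, the nuclease that trims the stem-loop end (-0.98 ± 0.47), the cleavage factor Cpsf2 (-0.95 ± 0.42) and the uridyltransferase Tut7 (-0.90 ± 0.40) were next by the size of their statistic and did not pass. Slbp, named for its role after its values were seen, read -1.37 and -1.21 in the knockout spleens and -0.55, -0.48 and 2.09 in the heterozygous spleens. Of the histone genes that the rule left out, H4f16 (-2.52 ± 0.51) and the centromeric variant Cenpa (-1.50 ± 0.53) lay below the pool by the same rule, and Macroh2a1 (0.47 ± 0.33) and H2aj (-0.19 ± 0.36) did not.

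In the heterozygous group the replication-dependent median was -0.59 and the variant median 0.31. Of the 48 members, limma called 0 over all genes, where it called 0.322% of all, and the smallest adjusted p among members was 0.357, that of H3c1. At an unadjusted p under 0.05, 4 members lay below the pool (8.00% of all genes) and 2 above it (5.06% of all genes). Both counts were close to the share over all genes. The 4 were H1f1 (-1.73 ± 0.62, SE, n = 3), H1f5 (-1.38 ± 0.52), H3c1 (-1.28 ± 0.41) and H3c3 (-1.30 ± 0.48), and the 2 were H1f2 (0.74 ± 0.29) and H3f3a (1.15 ± 0.41). The count below was 1 without the library labelled heterozygous 1 (438 of all 9000 genes). It was 0 without heterozygous array 2 (1086 of 9000) and 10 without heterozygous array 3 (808 of 9000). The count above was 2 without that library (247 of 9000). It was 1 without heterozygous array 2 (530 of 9000) and 1 without heterozygous array 3 (777 of 9000). All 3 heterozygous arrays lay below the pool for 17 of 44 replication-dependent genes, against 15.1% of all genes, and heterozygous arrays 2 and 3 alone did for 18 (21.7% of all). The same 17 lay below it on all 5 arrays, as did 9.69% of all genes. Of these 17, 7 were H2B, 4 H3, 2 H1, 2 H2A and 2 H4 genes. Without the library labelled heterozygous 1 the replication-dependent median was -0.33 and the variant median 0.70, and without heterozygous array 3 they were -0.87 and -0.11.

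H2A genes read higher than neighbouring H2B genes in most pairs on each array but the library labelled heterozygous 1. Of the members, 6 pairs of an H2A and an H2B gene are next to each other among the annotated genes of GRCm38.p6. Such neighbours are often transcribed from 1 shared promoter region in opposite directions. The strands of these 6 pairs were not checked. On heterozygous array 3 the H2A gene read higher than its H2B neighbour in 5 of 6 pairs, by a median of 1.01 and by up to 1.73 for H2ac7 over H2bc7. On heterozygous array 2 this held for 6 of 6 pairs, with a median of 0.58. On the library labelled heterozygous 1 it held for 2 of 6, with a median of -0.27 and a range from -1.54 for H2ac12 under H2bc12 to 0.77 for H2ac4 over H2bc3. The knockout arrays had medians of 0.23 and 0.87, with 4 and 5 of 6 pairs. Because probes of a family can bind each other's messengers, the pairs may not report single genes.

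**Figure D3:**
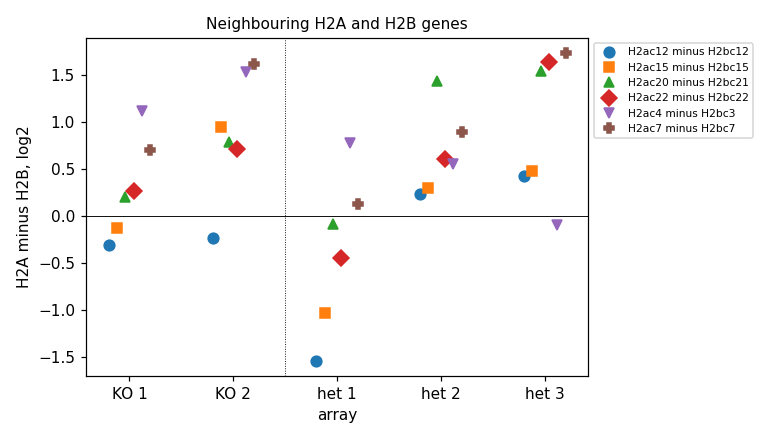
Difference in log2 ratio between an H2A gene and the H2B gene next to it (vertical axis) on each of the 5 arrays (horizontal axis), 1 symbol per pair. The pairs lie between -1.54 and 0.77 on the library labelled heterozygous 1 and between -0.10 and 1.73 on heterozygous array 3.

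Between the mutant groups, where pool and dye cancel, histone genes read higher in the heterozygous group without passing the test. The mean difference, heterozygous minus knockout, was above 0 for 43 of 44 replication-dependent genes, all but H2ac18, and the median was 1.36, against 0.026 for all tested genes. It was 0.60 for the 4 variant genes, and 1.00 without the library labelled heterozygous 1. For S phase genes the median was 1.28 (35 of 35 above 0), slightly under the replication-dependent one. Medians were larger for mitosis genes (1.52, 20 of 20), erythroid markers (2.46, 22 of 23) and exocrine pancreas genes (2.42, 11 of 11). The part of these sets in the histone difference was not tested. Limma called 0 of 48 members and 0 of 9000 genes (0% of all), and the smallest adjusted p among members was 0.257, that of H2bc4 (2.10 ± 0.43, SE, n = 3 and 2), which differed by 2.23 without the library labelled heterozygous 1. At an unadjusted p under 0.05, 7 members were higher (3.48% of all genes) and 1, H2ac18, lower (5.34% of all genes), where probe 30676 alone gave a difference of -0.30. The 7 were H2bc4, H2bc7 (1.73 ± 0.71), H2bu2 (2.29 ± 0.72), H4c2 (1.83 ± 0.70), H4c6 (1.67 ± 0.66), H4c9 (1.45 ± 0.52) and H4c14 (2.18 ± 0.86). Every heterozygous array lay above both knockout arrays for 13 of 44 replication-dependent genes, against 14.4% of all genes, and heterozygous arrays 2 and 3 did for 26 (29.0% of all). The 13 were 6 of 13 H2B, 6 of 11 H4, 1 of 7 H3, 0 of 10 H2A and 0 of 3 H1 genes.

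The size of that difference moved with single arrays. Without knockout array 2 the replication-dependent median difference was 0.55, and without knockout array 1 it was 2.04. In both fits 1 knockout array was left and the spread came from the heterozygous arrays alone, so no count of members is given. Without the library labelled heterozygous 1 the median was 1.56. At an unadjusted limma p under 0.05, 15 members were then higher (679 of all 9000 genes). Without heterozygous array 3 the median was 0.92 and 3 members were higher (404 of 9000). The replication-dependent median difference exceeded the variant one by 0.76 over all arrays. It did so by 0.56 without the library labelled heterozygous 1, and by -0.082 without knockout array 2.

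**Figure D4:**
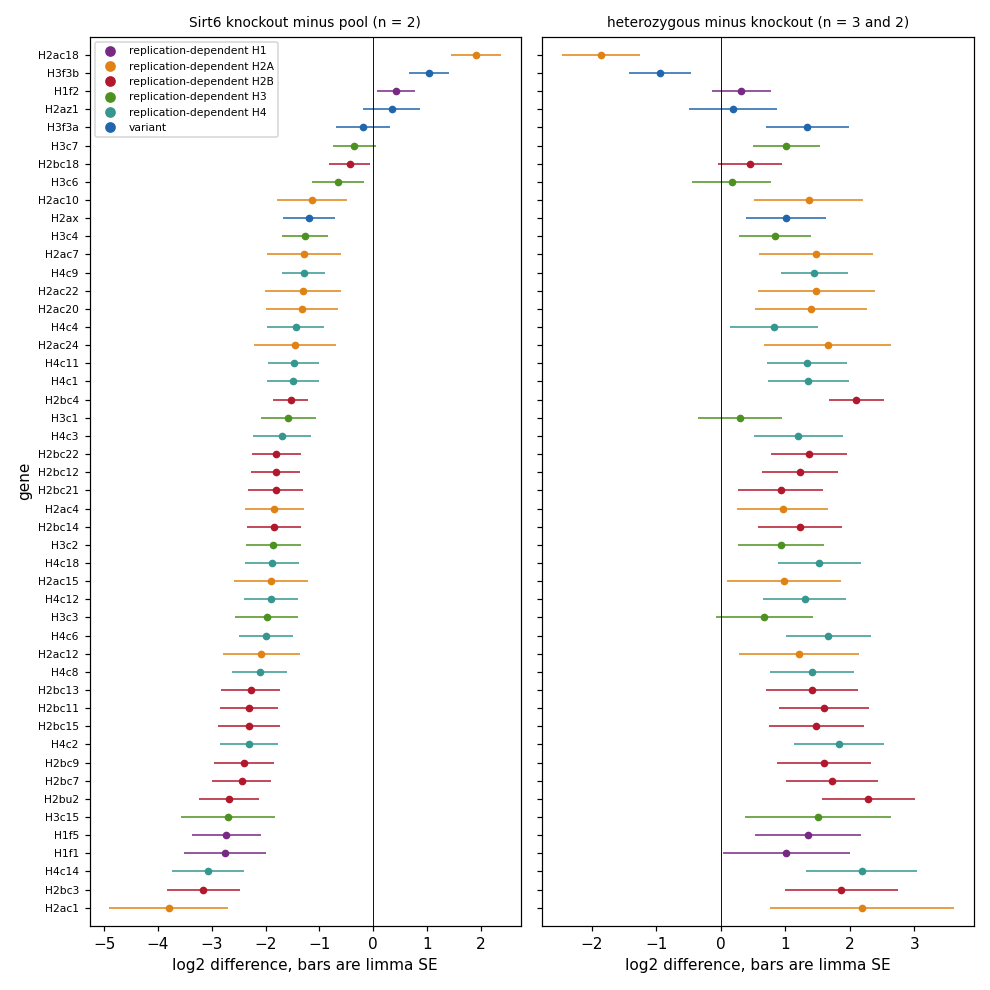
Log2 differences of the 48 histone genes with limma's standard error as bars, for the Sirt6 knockout group minus the pool (left, n = 2) and the heterozygous minus the knockout group (right, n = 3 and 2), ordered by the left panel and coloured by class and family. The left panel runs from -3.80 for H2ac1 to 1.91 for H2ac18, and 46 of 48 genes lie above 0 in the right panel.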

How the data were processed

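The authors deposited 1 table of processed values of 5 2-colour arrays, taken here as log2 ratios of Cy5 (mutant) over Cy3 (wild-type pool) from their range and symmetry, with the dyes per the labels. The sources used here do not state how they were normalized, why cells are blank or the log base, and spot intensities were not used. Each array was centred on its median and probes of a symbol were averaged. The symbols came from the platform annotation, which named 22204 probes. The 9000 genes measured on each array entered 1 limma 3.58.1 model in R 4.3.3 (3 residual and 3.63 prior degrees of freedom), 2-sided, with Benjamini-Hochberg adjustment at 0.05 over all genes. The contrasts were each group mean against 0 and heterozygous minus knockout. Errors given as SE are moderated and draw on all 5 arrays. The fit was run on simulated data with equal shifts on all 5 arrays and independent noise. Only the heterozygous contrast was checked there, and the other contrasts were not. The labels do not identify the animals, so p-values reflect the spread among these samples alone, which may be technical, and the number of arrays limits the precision.

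Histone members, classes and gene lists were chosen with earlier results of these data known. Values on each array were given for all variant genes, all replication-dependent H1 genes and the 2 highest and 2 lowest members of each other replication-dependent family by the mean over arrays, and for H2bu2, added after its values were seen because its adjusted p was the smallest. Other members are named beside the counts they belong to, and from each of the lists on histone messenger processing, chaperones and other histones the 4 genes with the largest knockout statistic are named. Plots were made in Python 3.11.15 (matplotlib 3.10.9). Alternatives covered scaling, missing values, probes, the eBayes settings, a filter on variance, the replicate block and each array left out.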

Additional observations from a re-analysis of the deposited data

Results flagged for a closer look

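H2bc4 is given for a closer look because both knockout arrays lay below the pool (-1.35 and -1.72) and all 3 heterozygous arrays above it (0.30, 0.84 and 0.55), so that the mean difference was 2.10 on the log2 scale. The pattern held for 2.12% of all tested genes, close to its share among the 48 members. Limma's test of that difference had an adjusted p of 0.257. Of its probes, 20022 showed the pattern on all 5 arrays, and 19660 read -0.23 on the library labelled heterozygous 1.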

How the results depend on the processing

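In the knockout group, limma called 24 of 47 members when the 25% of genes with the least variance were dropped. It then also called 219 genes higher and 422 lower of all 6750. With the spread from the knockout arrays alone it called 42 members, where it called 1564 genes higher and 1757 lower of all 9000. Under the variance filter it called 2 members in the heterozygous group, close to the share over all genes (71 higher and 230 lower of 6750). Under the other alternatives run it called 0 members. The cause was not tested. The count of members lower at an unadjusted p under 0.05 in the knockout group ran from 2 to 40 with single arrays left out, and the count higher in the difference between groups from 1 to 22, with 4 under the replicate block. The block gave a replication-dependent median difference of 0.92, as did leaving out heterozygous array 3. That array has no knockout array of its number, so the block sets it aside and is no separate check. The replicate numbers name the samples only, and the correlation of same-numbered deviations across genes was -0.4755. The excess of the replication-dependent over the variant median difference ran from -0.082 to 1.49 with single arrays left out. Scaling, missing values and probe averaging left every other class median within 1 replicate SD. The heterozygous count of members lower at an unadjusted p ran from 0 to 10 with single arrays left out and was 7 under that filter. The count higher ran from 1 to 2, and was 1 under that filter, 1 with the heterozygous arrays alone and 4 with probes on their own. Leaving out single arrays turned the sign of 2 members in the knockout group, 13 in the heterozygous group and 7 between the groups, of 48 each. H2bu2 was among the 13. Of the genes picked by the naming rule these were, in the heterozygous group, H2ax (-0.73 to 0.14), H3f3b (-0.22 to 0.30), H2ac10 (-0.46 to 0.94), H2ac18 (-0.17 to 0.49), H2bc18 (-0.30 to 0.26), H4c11 (-0.41 to 0.17) and H4c9 (-0.14 to 0.41), and in the knockout group H3f3a (-0.41 to 0.035) and H3c7 (-0.73 to 0.027). Between the groups they were H2az1 (-0.34 to 0.77), H1f1 (-0.28 to 2.31), H3c3 (-0.19 to 1.54) and H3c6 (-0.43 to 0.76). The replicate block, which sets heterozygous array 3 aside, turned H2az1 (-0.34) and H3c6 (-0.16). Quantile normalization and scaling to the same deviation turned H2bc18 in the heterozygous group (-0.036 and -0.042), and probe 34943 of H4c9 alone read -0.46 there. The use of only probes with a value on all 5 arrays was chosen after seeing the data.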
